A study of Sus scrofa domesticus with 11 samples.

Results

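Liver transcripts of 8 lipoprotein genes were examined in preterm piglets: 7 apolipoproteins (APOA1, APOA2, APOA4, APOB, APOE, APOH and APOM) and MTTP, the microsomal triglyceride transfer protein. They were selected by gene symbol from a list of 10 names, and these 8 were the names found in the symbol column of the deposited table, out of 22029 genes. APOA5 and APOC3 have no entry under those symbols, although a row without a symbol is described there as APOC3 and is treated separately below. Treated animals received SEFA-6179, a compound known by its code name, at 48 mg/kg (5 libraries). Controls received MCT, the medium-chain triglyceride vehicle as known from the study, at 3 ml/kg (6 libraries). All were Yorkshire piglets born preterm and fed by vein (parenteral nutrition), and liver was taken on day 15 of life. Each library was read as 1 animal, since the labels number them separately within a group. Their sex and litter were not among the labels used here.

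Lipoproteins carry triglyceride and cholesterol through the blood in particles wrapped in phospholipid and apolipoproteins. Hepatocytes build very-low-density lipoprotein (VLDL) by loading lipid onto nascent APOB, a step that needs MTTP in the endoplasmic reticulum. High-density lipoprotein (HDL) grows around APOA1 and APOA2, and smaller exchangeable apolipoproteins such as APOE, APOA4 and the C group move between particles and steer their uptake or the activity of lipases. The comparison of SEFA-6179 with MCT asks how the hepatic transcripts of this system differed under the compound.

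No member passed the threshold. The nearest was APOA2, 2.23-fold higher with SEFA-6179. In CPM (counts scaled between libraries by TMM) every SEFA-6179 library lay narrowly above every MCT library, the closest being 659 and 652. As a share of all counts the APOA2 groups overlapped, with SEFA-6179 replicate 4 at 0.0606% and MCT replicate 1 at 0.0645%. They also overlapped on the deposited FPKM scale. APOE, the next, was 1.45-fold higher, and its groups overlapped. APOB and MTTP, the core of VLDL assembly, differed by 1.07-fold and 1.23-fold, and APOA1 had a ratio of 0.917 between SEFA-6179 and MCT. By the quasi-likelihood test of edgeR, with p-values adjusted over 13671 tested genes (Benjamini-Hochberg, threshold 0.05), 0 of 8 members were called, where 0.219% of all tested genes were. At an unadjusted p under 0.05 there were 2 of 8 members, APOA2 and APOE, against 10.8% of all tested genes. With DESeq2 1 of 8 passed, APOA2, where 2.06% of the genes with an adjusted p did. The log2 fold change was above 0 for 7 of 8 members, against 49.8% of tested genes, with a median of 0.21 over the members and -0.0015 over all genes; scaling by library totals, which moved the median of all genes by -0.10, put APOB (-0.0069) and APOM (-0.062) below 0 as well. In CPM the groups did not overlap for 1 of 8 members, APOA2, against 1.49% of tested genes.

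Total counts per library ran from 15974977 to 23416071, and the lowest count of any member in any library was 1802, so counting error is small beside the spread between animals. Together the 8 genes took 3.79%, 4.79%, 3.58%, 4.17% and 4.43% of the counts in SEFA-6179 replicates 1 to 5. In MCT they took between 2.56% and 4.40%, and the groups overlapped. One library differed widely from the rest: MCT replicate 5 scored 83.1 on principal component 1, where the other 10 libraries lay between -30.8 and 14.7. Without it and SEFA-6179 replicate 4, the library lowest in macrophage transcripts, 0 of 8 members were called by edgeR (2 at an unadjusted p under 0.05). In that fit 1 of 13785 tested genes was called, and 1481 were at an unadjusted p under 0.05. The log2 fold changes were 1.22 for APOA2, 0.63 for APOE, 0.38 for APOH, 0.20 for MTTP, 0.79 for APOA4, 0.05 for APOB, 0.11 for APOM and -0.07 for APOA1. The count of 30 calls over the whole table also depended on which library was left out. Removing SEFA-6179 replicate 5 or MCT replicate 4 left 0 calls by edgeR (1184 or 1258 genes at an unadjusted p under 0.05), and removing MCT replicate 1 left 1. Removal of SEFA-6179 replicate 1 or of MCT replicate 2 left 9, removal of MCT replicate 3 left 16, and removal of SEFA-6179 replicate 3 gave 53.

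**Figure D1:**
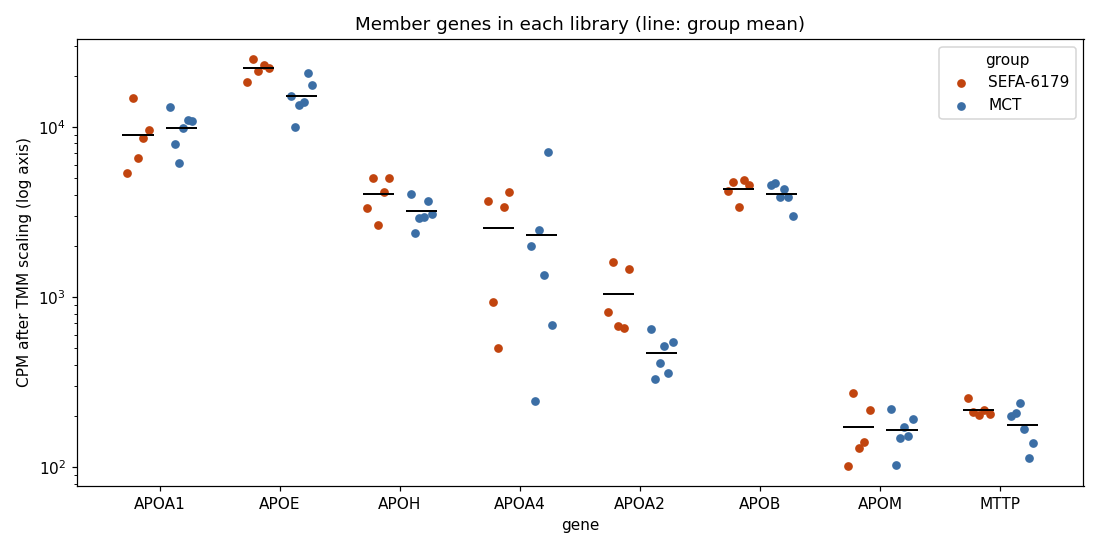
Levels of the 8 genes as CPM (count as parts per 1e6 of the TMM-scaled library, log axis), 1 point per library, with SEFA-6179 left of MCT for each gene and a line at the group mean; genes are ordered by level per length. The SEFA-6179 points of APOA2 all lie above the MCT points, at 659 to 1607 against 328 to 652 CPM, while those of the other 7 genes overlap.

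Levels between genes were compared on the deposited FPKM scale, which divides by gene length. The order thus depends on the deposited lengths, which were 1301 bases for APOA1, 3534 for APOE, 1747 for APOA2 and 14860 for APOB. Whether these lengths match the transcripts made in these livers was not tested. In counts APOE exceeded APOA1 in every library, with 170 to 343 per 100 APOA1 counts in SEFA-6179 and 116 to 221 in MCT. Over all 11 libraries APOA1 was the highest member per length at 7181 ± 2215 FPKM (SD, n = 11), the 7th highest of all genes in the table. APOE followed at 5130.0 ± 1312 FPKM, APOH at 2958 ± 746 FPKM and APOA4 at 1553 ± 1339 FPKM. APOA2 was at 413 ± 240.0 FPKM, APOB at 279 ± 40.3 FPKM, APOM at 55.6 ± 17.4 FPKM and MTTP at 34.2 ± 7.20 FPKM. The ranges of neighbours in this order overlapped in every case except APOB and APOM. APOA1 exceeded APOE in 3 of 5 SEFA-6179 and 6 of 6 MCT libraries, and APOE exceeded APOH in 11 of 11 libraries. The place of APOA2 above APOB came from the SEFA-6179 livers, where APOA2 averaged 589.5 ± 257 FPKM beside 289 ± 39.7 FPKM for APOB and was the higher in 5 of 5 (SD, n = 5). In MCT livers APOA2 averaged 265 ± 71.2 FPKM beside 271 ± 42.6 FPKM for APOB and was the higher in 3 of 6 (SD, n = 6), a difference within their spread.

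APOA2, a structural protein of HDL, lies on chromosome 4 from 89237511 to 89240320 (plus strand; coordinates are those of the deposited table, its genome build not given in the sources used here). It was at 814, 1607, 672, 659 and 1463 CPM in SEFA-6179 replicates 1 to 5. In MCT it ran from 328 CPM through a median of 461 CPM to 652 CPM. Replicates 2 and 5 of SEFA-6179 stood high, and the gap between the lowest SEFA-6179 library and the highest MCT library, MCT replicate 1, was small. The means were 1043 ± 456 CPM (SD, n = 5) in SEFA-6179 livers and 467 ± 124 CPM (SD, n = 6) in MCT livers. The log2 fold change was 1.16 ± 0.28 (SE), with a 95% interval from 0.56 to 1.75 and an edgeR adjusted p of 0.123. The same gene had a DESeq2 adjusted p of 0.00433, and in the authors' deposited table its log2 fold change was 1.16 with an adjusted p of 0.00414, where 1.16% of that table's rows lie under 0.05. Leaving out 1 library at a time gave log2 fold changes from 0.95 without SEFA-6179 replicate 2 to 1.29 without SEFA-6179 replicate 4, and edgeR adjusted p from 0.0636 to 0.315, so no call was gained. On the deposited FPKM scale the separation was not complete: the lowest SEFA-6179 library was at 372.3 FPKM and the highest MCT library at 372.8 FPKM. In a piece of liver, more RNA per cell and more cells of the type that makes it cannot be told apart. The summed CPM of the 7 hepatocyte markers (ALB, TTR, TF, SERPINC1, CPS1, ASGR1 and HNF4A) overlapped between groups, at 60634 to 160071 with SEFA-6179 and 52669 to 156162 with MCT, and 0 of 7 were called. ALB and TF made up most of these sums, with 18124208 and 4979738 counts over all libraries, so the sums mainly follow those genes. None of the 7 was at 0 in any library, and the highest sums of the groups were those of SEFA-6179 replicate 4 and MCT replicate 5.

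APOA1, the scaffold of HDL and the activator of the cholesterol-esterifying enzyme LCAT, lies on chromosome 9 from 44216393 to 44218978 (minus strand). It was at 5378, 14698, 6613, 8647 and 9645 CPM in SEFA-6179 replicates 1 to 5. In MCT it ran from 6126 CPM through a median of 10323 CPM to 13157 CPM. SEFA-6179 held both the lowest and the highest of the 11 libraries, and the groups overlapped. Its log2 fold change was -0.13 ± 0.28 (SE; 95% interval -0.72 to 0.47, edgeR adjusted p = 0.905), and 0.0054 without SEFA-6179 replicate 1.

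APOM, a lipocalin of HDL that carries sphingosine-1-phosphate, lies on chromosome 7 from 23768984 to 23773324. It was at 102, 272, 130, 141 and 216 CPM in SEFA-6179 replicates 1 to 5, and between 103 and 220 CPM in MCT livers, with a median of 163 CPM. SEFA-6179 held the lowest and the highest library here too. Between groups APOM had a log2 fold change of 0.06 ± 0.25 (SE; 95% interval -0.48 to 0.61, edgeR adjusted p = 0.956). It was below 0 when SEFA-6179 replicate 2 (-0.16), SEFA-6179 replicate 5 (-0.036) or MCT replicate 2 (-0.041) was left out. Of the 28 pairs of members, APOA1 and APOM differed least in pattern. With each gene's log2 CPM centred on its own mean, they differed by 0.19 on average over 11 libraries. The largest difference, 1.34, was that of APOA1 and APOA4. This measure also grows with a gene's own spread, and the SD of log2 CPM was 1.48 for APOA4 against 0.46 for APOA1.

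Counts of APOA2 per 100 counts of APOA1 in the same library need no scaling between libraries. This ratio, chosen after its values were seen, was 15.1, 10.9, 10.2, 7.62 and 15.2 in SEFA-6179 replicates 1 to 5. In MCT it was 4.96, 4.13, 6.67, 5.22, 3.25 and 5.04 in replicates 1 to 6. The groups did not overlap, with means of 11.8 ± 3.29 for SEFA-6179 (SD, n = 5) and 4.88 ± 1.15 for MCT (SD, n = 6). No p is given, since both genes belong to the chosen list. The 2 SEFA-6179 libraries with the highest ratio were replicates 1 and 5, of which replicate 1 had the lowest APOA1 of all libraries.

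**Figure D2:**
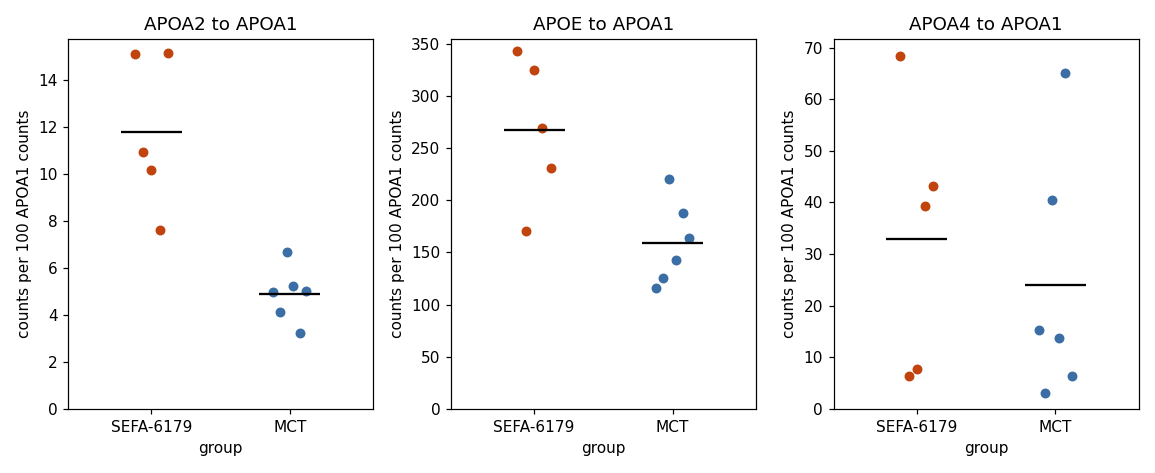
Counts of APOA2, APOE and APOA4 per 100 counts of APOA1 in each library (linear axes from 0), SEFA-6179 left of MCT, with a line at the group mean. The APOA2 ratio is 7.62 to 15.2 with SEFA-6179 and 3.25 to 6.67 with MCT, while the APOE and APOA4 ratios overlap between groups.

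APOE, the ligand through which remnant particles are taken up by receptors of the LDL receptor family, lies on chromosome 6 from 51372259 to 51377794 (plus strand). It held more counts than any other member, from 0.985% of a library in MCT replicate 2 to 2.29% in SEFA-6179 replicate 2. It was at 18459, 25020.5, 21443, 23250.2 and 22275 CPM in SEFA-6179 replicates 1 to 5. In MCT it ran from 9988 CPM through a median of 14662 CPM to 20619 CPM in replicate 5. Every SEFA-6179 liver but replicate 1 exceeded the highest MCT liver, and 5 of 6 MCT libraries lay below all SEFA-6179 libraries. The means were 22089.5 ± 2427 CPM (SD, n = 5) in SEFA-6179 livers and 15189 ± 3660.0 CPM (SD, n = 6) in MCT livers. For APOE the log2 fold change was 0.54 ± 0.21 (SE; 95% interval 0.08 to 1.00). Its adjusted p was 0.356 by edgeR, 0.103 by DESeq2 and 0.126 in the authors' deposited table, none of which passed, and the log2 fold change stayed between 0.45 and 0.65 with any 1 library left out.

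Macrophages also make APOE. The summed CPM of 8 macrophage markers was 51.4 to 1799 in SEFA-6179 livers, against 169 to 1061 in MCT livers, 7 of 8 had a log2 fold change above 0, none was at 0 in every library and 0 of 8 were called. The lowest sums of the groups belonged to SEFA-6179 replicate 4 (51.4) and MCT replicate 5 (169), and APOE was at 23250.2 CPM in that SEFA-6179 library and at 20619 CPM in that MCT library. The part of macrophages in the APOE values was not tested.

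A row for APOC2, the activator of lipoprotein lipase, begins 23045 bases beyond the end of APOE on the same strand. The table gives it no symbol but describes it as APOC2. It averaged 2423 ± 618 CPM (SD, n = 5) in SEFA-6179 livers and 1494 ± 415 CPM (SD, n = 6) in MCT livers, and 4 of 5 SEFA-6179 livers exceeded the highest MCT liver. Its log2 fold change was 0.70 ± 0.24 (SE) with an edgeR adjusted p of 0.294 and a DESeq2 adjusted p of 0.101.

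APOA4, an exchangeable apolipoprotein made in intestine and, in mice, also in liver, lies on chromosome 9 from 44201508 to 44204206 (minus strand). It varied more than any other member. It was at 3679.8, 930.5, 505, 3401 and 4167 CPM in SEFA-6179 replicates 1 to 5. In MCT it was at 2001, 245, 2479, 1344, 7149 and 688 CPM in replicates 1 to 6. The highest library exceeded the lowest 8.25-fold within SEFA-6179 and 29.1-fold within MCT, where for the other 7 genes the spread within a group was at most 2.73-fold. The means were 2537 ± 1689.6 CPM (SD, n = 5) in SEFA-6179 livers and 2318 ± 2505 CPM (SD, n = 6) in MCT livers, and the groups overlapped throughout.

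The log2 fold change of APOA4 was 0.13 ± 0.78 (SE; edgeR adjusted p = 0.974), and its 95% interval ran from -1.58 to 1.84, which holds both -1 and 1. It was 0.91 without MCT replicate 5, the library with the outlying component score. It was below 0 without SEFA-6179 replicate 1 (-0.044), SEFA-6179 replicate 5 (-0.13), MCT replicate 2 (-0.11) or MCT replicate 6 (-0.060). The 7 enterocyte markers found in the table summed to 13.8 to 45.5 CPM in SEFA-6179 livers and 19.6 to 106 CPM in MCT livers, the highest being MCT replicate 5; 3 of them were tested and 0 called. VIL1 and CDHR2 made up most of this. CDX2, a transcription factor of gut epithelium, reached 2.53 CPM, and FABP2, SI, CDX1 and RBP2 did not exceed 0.645 CPM in any library. The part of enterocyte and cholangiocyte transcripts in the APOA4 values was not tested.

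**Figure D3:**
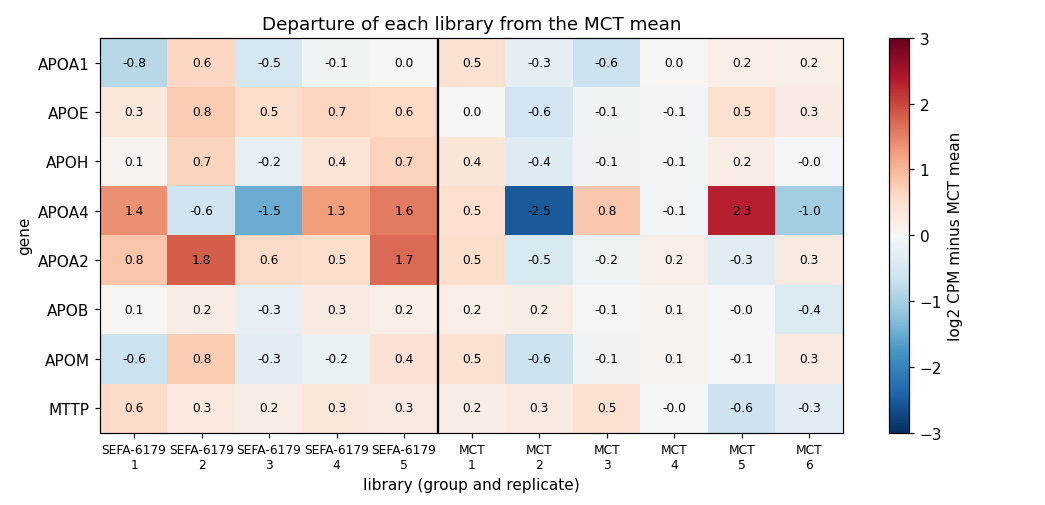
Each cell gives the log2 CPM of a gene in 1 library minus the MCT mean of that gene (red above, blue below), with the 5 SEFA-6179 libraries left of the 6 MCT libraries. APOA4 runs from -2.5 in MCT replicate 2 to 2.3 in MCT replicate 5, while APOA2 is above 0 in all 5 SEFA-6179 libraries and highest, at 1.8, in replicate 2.

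APOA1, APOA4, APOC3 and APOA5 form a gene cluster in mammals. The row that the table describes as apolipoprotein C3 (ENSSSCG00000015069, chromosome 9, 44199871 to 44213550, plus strand) has no symbol there, and a list of gene identifiers names it APOC3. It spans the whole APOA4 row on the opposite strand and ends 2843 bases before APOA1. APOC3 is an inhibitor of lipoprotein lipase and of remnant uptake. The row was at 9210.4, 9864, 7458, 13715 and 14459 CPM in SEFA-6179 replicates 1 to 5, and in MCT between 5899 and 16938 CPM, with a median of 7839 CPM. Its highest library was MCT replicate 5, which was also the highest for APOA4. The log2 fold change was 0.22 ± 0.30 (SE; 95% interval -0.42 to 0.85, edgeR adjusted p = 0.842). Its level per length averaged 8884 ± 3207 FPKM (SD, n = 11), beside 7181 ± 2215 FPKM for APOA1, and their ranges overlapped. The strand setting was not among the notes used here, and how far reads of the APOA4 and APOC3 rows were kept apart was not tested.

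No row carries the symbol or the description of APOA5. In the RefSeq gene list of assembly Sscrofa11.1, APOA5 is the next gene after ZPR1 in the direction of APOA4. The table's ZPR1 row (chromosome 9, 44166040 to 44180307) averaged 2398 ± 961 CPM (SD, n = 5) in SEFA-6179 livers and 1465 ± 718 CPM (SD, n = 6) in MCT livers, and its level per length was 290.0 ± 143 FPKM (SD, n = 11), beside 279 ± 40.3 FPKM for APOB. Its log2 fold change was 0.71 ± 0.36 (SE) with an edgeR adjusted p of 0.505. ZPR1 encodes a zinc finger protein, and whether its row holds reads of APOA5 was not tested.

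**Figure D4:**
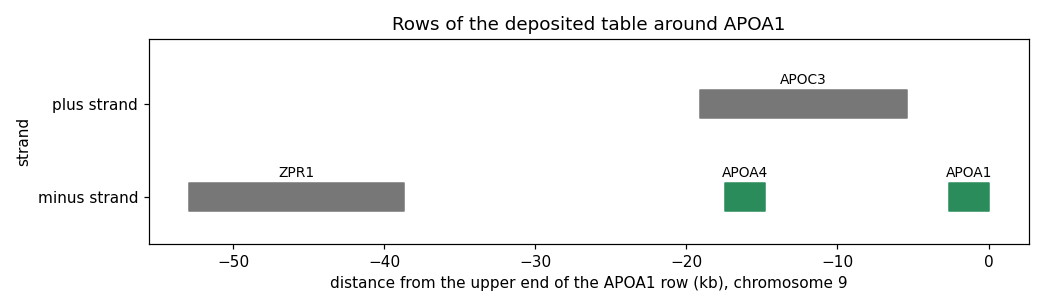
Rows of the deposited table on chromosome 9 drawn to scale by strand, as distance in kb from the upper end of the APOA1 row; green bars are members, and grey bars are the APOC3 row and ZPR1. The APOC3 row reaches from -19.1 to -5.43 kb and covers APOA4, at -17.5 to -14.8 kb, on the other strand.

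APOB, the single non-exchangeable protein of each VLDL and LDL particle, lies on chromosome 3 from 117250096 to 117316200 (plus strand). It was at 4187, 4721, 3363, 4861 and 4570.0 CPM in SEFA-6179 replicates 1 to 5. In MCT it ran from 2982 CPM through a median of 4116 CPM to 4704 CPM. The groups overlapped, and the spread within each was small, with a coefficient of variation of 13.9% with SEFA-6179 and 15.6% with MCT. Its log2 fold change was 0.10 ± 0.18 (SE; 95% interval -0.30 to 0.49, edgeR adjusted p = 0.892), and with library totals in place of TMM scaling it was -0.0069. APOBEC1, whose product edits APOB mRNA to the short form in gut, had 4 counts in all 11 libraries together and at most 0.198 CPM in any.

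MTTP lies on chromosome 8 from 120819142 to 120879388 (minus strand). It was at 255, 209.9, 202, 217 and 206 CPM in SEFA-6179 replicates 1 to 5, with replicate 1 apart from the other 4. In MCT it ran from 113 CPM in replicate 5 through a median of 184 CPM to 237 CPM in replicate 3. All SEFA-6179 libraries lay above 4 of 6 MCT libraries but not above replicates 2 and 3. The means were 218 ± 21.7 CPM (SD, n = 5) in SEFA-6179 livers and 178 ± 46.6 CPM (SD, n = 6) in MCT livers. This gave MTTP a log2 fold change of 0.30 ± 0.19 (SE; 95% interval -0.10 to 0.69, edgeR adjusted p = 0.601), and it lay between 0.19 and 0.39 with any 1 library left out. Per 100 counts of APOB there were 4.45 to 6.10 counts of MTTP with SEFA-6179 and 2.89 to 6.16 with MCT.

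APOH, also called beta-2-glycoprotein I, a phospholipid-binding plasma protein found partly on lipoproteins, lies on chromosome 12 from 12827201 to 12839175 (minus strand). It was at 3353, 4991, 2646, 4157 and 5044 CPM in SEFA-6179 replicates 1 to 5. In MCT it ran from 2386 CPM through a median of 3028 CPM to 4059 CPM. Replicates 2, 4 and 5 of SEFA-6179 exceeded every MCT library, and replicates 1 and 3 lay within them. APOH had a log2 fold change of 0.34 ± 0.22 (SE; 95% interval -0.12 to 0.81, edgeR adjusted p = 0.601).

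**Figure D5:**
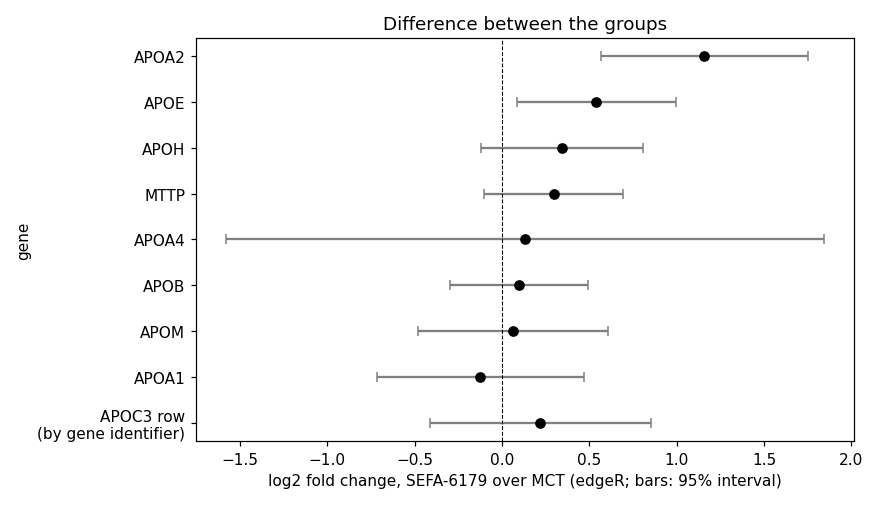
Log2 fold change of SEFA-6179 over MCT by edgeR with its 95% interval, for the 8 genes in order of size and, at the bottom, the APOC3 row found by gene identifier. The intervals of APOA2 (0.56 to 1.75) and APOE (0.08 to 1.00) lie above 0 before adjustment over all genes, and that of APOA4 is the widest (-1.58 to 1.84).

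For the 3 members that varied most over libraries, the 3 genes with the most similar pattern were named, by the average difference in centred log2 CPM over 11 libraries. For APOA4 these were NME5 (0.60), HDC (0.62) and SLC27A2 (0.67). NME5 and HDC did not exceed 2.41 CPM in any library. SLC27A2, a fatty acid transporter and very-long-chain acyl-CoA synthetase, was at 269, 76.1, 85.9, 153 and 229.6 CPM in SEFA-6179 replicates 1 to 5, high and low in the same replicates as APOA4. In MCT replicates 1 to 6 it was at 145, 70.8, 152, 134, 156 and 64.0 CPM, so replicates 2 and 6 were low for SLC27A2 and APOA4 alike. The peak of APOA4 in MCT replicate 5, at 7149 CPM against 2479 CPM in replicate 3, was not matched in size by SLC27A2. HDC and SLC27A2 are neighbours on chromosome 1. For APOA2 the nearest were CCDC28A (0.29), SESN1 (0.30) and ABCC1 (0.30), and for APOA1 they were NOP53 (0.16), NFKBIL1 (0.18) and CEP83 (0.19). For comparison, the members' own average departure from their mean was 1.22 for APOA4, 0.55 for APOA2 and 0.36 for APOA1.

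Other genes of the pathway were read in the same test, where 0.219% of all tested genes were called and 49.8% were above 0. Of 7 other tested apolipoprotein or apolipoprotein-named genes 0 were called and 5 were above 0, with a median log2 fold change of 0.07. The smallest p were those of APOC2, described above, and of APOBR, a receptor for APOB particles on macrophages, at 3.94 ± 1.71 CPM under SEFA-6179 against 2.97 ± 0.878 CPM under MCT (edgeR adjusted p = 0.685). CLU, or apolipoprotein J, averaged 1493 ± 249.5 CPM in SEFA-6179 livers and 1471 ± 296 CPM in MCT livers. The list of partners of APOB lipidation and VLDL secretion included ACAT2 (log2 fold change 0.16), the symbol of a cytosolic acetyl-CoA acetyltransferase. Of its 27 tested genes 0 were called and 20 were above 0 (median 0.14). The smallest p among them belonged to SOAT2, which esterifies cholesterol for VLDL, at 40.8 ± 10.6 CPM under SEFA-6179 against 65.3 ± 23.2 CPM under MCT (edgeR adjusted p = 0.335), and to SMLR1, which aids VLDL export in mice, at 82.2 ± 26.8 CPM under SEFA-6179 against 61.1 ± 8.75 CPM under MCT (edgeR adjusted p = 0.458). P4HB, the protein disulfide isomerase that pairs with MTTP, averaged 1859 ± 329 CPM in SEFA-6179 livers and 1547 ± 139.7 CPM in MCT livers (edgeR adjusted p = 0.603).

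Of 13 tested genes of HDL formation and lipoprotein remodelling 1 was called, where 0.219% of all tested genes were. It was LIPG, endothelial lipase, which acts on HDL phospholipid. LIPG averaged 81.2 ± 35.2 CPM (SD, n = 5) in SEFA-6179 livers and 25.1 ± 8.59 CPM (SD, n = 6) in MCT livers, a log2 difference of 1.69 ± 0.30 (SE; edgeR adjusted p = 0.0398). The call was lost in 8 of 11 fits with 1 library left out (those lacking replicates 1, 4 and 5 of SEFA-6179 and replicates 1, 2, 4, 5 and 6 of MCT, each in turn), where the log2 difference ran from 1.43 to 1.88 and the edgeR adjusted p from 0.0319 to 0.124. The list had 5 of 13 genes above 0, against 49.8% of tested genes, and a median of -0.06. ABCA1, which loads lipid onto APOA1, averaged 66.4 ± 12.2 CPM in SEFA-6179 livers and 60.0 ± 9.53 CPM in MCT livers (edgeR adjusted p = 0.776).

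Of 10 tested lipoprotein receptor genes 0 were called and 4 were above 0 (median -0.03). LSR, a receptor for triglyceride-rich particles, had the smallest p, at 47.6 ± 5.51 CPM in SEFA-6179 livers and 77.8 ± 24.6 CPM in MCT livers (edgeR adjusted p = 0.159). Its groups did not overlap in CPM, which held for 1 of 10 genes of this list and 1.49% of all tested genes. VLDLR had the next smallest p, at 9.02 ± 1.19 CPM under SEFA-6179 against 7.17 ± 0.895 CPM under MCT (edgeR adjusted p = 0.479).

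Of 25 tested transcription factors and cofactors known to act on apolipoprotein genes 0 were called and 15 were above 0 (median 0.07). CEBPB averaged 293 ± 120.2 CPM in SEFA-6179 livers and 193 ± 23.8 CPM in MCT livers (edgeR adjusted p = 0.408), and FOXA3 averaged 38.3 ± 7.40 CPM under SEFA-6179 against 49.4 ± 9.08 CPM under MCT (edgeR adjusted p = 0.440). HNF4A, the main driver of hepatic apolipoprotein transcription, averaged 257 ± 71.2 CPM in SEFA-6179 livers and 206 ± 27.8 CPM in MCT livers (edgeR adjusted p = 0.601). CREB3L3, which drives Apoa4 in mice, averaged 428 ± 99.9 CPM in SEFA-6179 livers and 375 ± 79.98 CPM in MCT livers (edgeR adjusted p = 0.781).

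Of 15 tested other secreted hepatocyte proteins 0 were called and 10 were above 0 (median 0.15), a median below the 0.21 of the members. The smallest p belonged to AHSG, or fetuin-A, at 9010.1 ± 5916 CPM in SEFA-6179 livers and 13795 ± 3731 CPM in MCT livers (edgeR adjusted p = 0.548), and to FGB, the fibrinogen beta chain, at 17507 ± 9095 CPM under SEFA-6179 against 12279 ± 3003 CPM under MCT (edgeR adjusted p = 0.555). ALB averaged 97838 ± 34649.8 CPM in SEFA-6179 livers and 82229 ± 28218 CPM in MCT livers (edgeR adjusted p = 0.840). Among markers of the other cell types in liver, cholangiocyte genes had 0 of 7 above 0 (summed CPM 37.8 to 75.6 with SEFA-6179, 54.0 to 136 with MCT) and endothelial genes had 6 of 6 above 0 (317 to 520.0 with SEFA-6179, 261 to 488 with MCT). Stellate cell and fibroblast genes had 2 of 7 above 0, erythroid genes 2 of 5 and T and NK cell genes 6 of 6. None of these markers was called, where 0.219% of all tested genes were. An unadjusted edgeR p under 0.05 was found for 4 of 7 cholangiocyte, 4 of 7 stellate cell and fibroblast and 3 of 6 endothelial markers. Erythroid markers had 1 of 5 and T and NK cell markers 0 of 6, against 10.8% of all tested genes. The groups did not overlap for 1 of 7 cholangiocyte markers, against 1.49% of tested genes. The part of these cell types in the values of the 8 genes was not tested.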

How the data were processed

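The deposited table gives, per the file headers, a raw count, a normalized signal and an FPKM value per gene and library, group means, and the authors' log2 fold change, p-value and adjusted p-value. That deposited signal equals the counts of a library over a single size factor, as checked on the values. Tools named, without their roles, in the submitters' processing notes are DESeq2 1.20.0, featureCounts 1.5.0-p3, StringTie 1.3.3b and HISAT2 2.0.5. The annotation, build and strand setting used by the authors were not given in the notes or headers used here.

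The main test used the deposited counts in edgeR 4.0.16 (R 4.3.3): filterByExpr (minimum count 10, which kept 13671 genes and all 8 members), TMM scaling and the robust quasi-likelihood test over all 11 libraries, two-sided, adjusted over all tested genes, threshold 0.05. Each SE is the log2 fold change over the root of its F value. CPM is after TMM scaling; log2 CPM used a prior count of 2. The test was checked on simulated counts. No libraries agreed within sampling noise (lowest chi-square per degree of freedom 41.9). As no label states that each library is a separate animal, p-values measure only the spread between libraries.

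Members and lists were chosen with earlier results of these data known. Named genes were the members, list genes past the threshold (otherwise the 2 with the smallest p), and the 3 genes most alike in pattern to each of the 3 most variable members; CLU, P4HB, ABCA1, HNF4A, CREB3L3, ALB, APOBEC1 and ZPR1 were chosen after their values were seen. List symbols came from the table, or by gene identifier for 774 genes. A planned promoter motif search was not run, since no promoter sequence was used here. Alternatives were other scaling, filters, DESeq2 1.42.0, limma 3.58.1, a replicate block, a covariate and libraries left out.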

Additional observations from a re-analysis of the deposited data

Results flagged for a closer look

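Of 16 groups of CPM values (8 genes in each of the 2 treatments), 2 had an end value set off from its neighbours by most of the group's range. Chance gives this in about 1 in 20 such groups where values are normally distributed, and whether CPM values are was not tested. APOA4 in MCT replicate 5 was at 7149 CPM, with the next MCT library at 2479 CPM. MTTP in SEFA-6179 replicate 1 was at 255 CPM, with the next SEFA-6179 library at 217 CPM.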

How the results depend on the processing

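Across 21 alternative settings the log2 fold changes of APOA2, APOE, APOH and MTTP kept their sign, and 1 member call was gained: APOA2 by the DESeq2 Wald test, so that 1 member was called in place of 0. The lowest adjusted p of APOA2 by any other setting was 0.0636. The count of genes called over the whole table, 30, was 276 by DESeq2, 62 by limma with library quality weights, 6 with log2 EIF1AY (a gene of chromosome Y) added to the model and 1 without both SEFA-6179 replicate 4 and MCT replicate 5. It was 8 with a replicate block over replicates 1 to 5, where APOA2 had a log2 fold change of 1.14 and an adjusted p of 0.261. Between libraries of the same number the correlations of deviations ran from -0.15 to 0.20, with 1 of 5 SEFA-6179 libraries closest to its own number. Such low values cannot tell whether libraries of the same number shared a litter or batch, which the labels used here do not give. With 1 library left out the count ran from 0 to 53. Scaling by library totals moved the median of all genes by -0.10, and gave APOB -0.0069 and APOM -0.062. APOM was -0.099 by limma. With 1 library left out APOA1 ran from -0.37 to 0.0054, APOA4 from -0.13 to 0.91 and APOM from -0.16 to 0.19. The cause was not tested. Counting the APOC3 row with the members gave 0 of 9 called and 8 of 9 above 0. The log2 difference of LIPG stayed above 0 in all 21 settings and passed the threshold in 8 of them. Members had at least 1802 counts in every library; some genes of the other lists had far fewer, and differences in those were less detectable at this depth.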
